A study of Mus musculus with 9 samples.

Results

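Immune checkpoint and costimulation genes were followed in the iris after corneal alkali injury. The 10 genes were Cd80, Cd86, Icosl, Cd274, Pdcd1lg2, Vsir, Havcr2, Ctla4, Pdcd1 and Lag3, chosen by symbol among the 18349 genes listed in each library, and all 10 were among the 15010 genes tested. RNA of mouse irises, whose outer edge had been trimmed away, was sequenced as 9 libraries of 3 pooled irises, with 3 libraries in each group. Sham VEGFR3fl/fl eyes received PBS on a filter paper laid on the cornea for 60 seconds, injured VEGFR3fl/fl eyes 0.5 μL of sodium hydroxide at 1 M in the same way, and injured VEGFR3iLECko eyes the same injury in mice that also carried Prox1CreERT2, a tamoxifen-inducible Cre under the Prox1 promoter, which deletes floxed VEGFR3 in lymphatic endothelial cells (LECs) and in other cells that express Prox1. Mice of all 3 groups were on a C57BL/6J background, carried floxed VEGFR3, were 6 weeks old at injury, received tamoxifen at 80 mg/kg on days 13 to 17 after it, and were 10 weeks old when the iris was taken, 28 days after injury. The labels call the VEGFR3fl/fl libraries wild type.

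T cells need a costimulatory signal beside the antigen receptor, and inhibitory receptors limit the response. CD80 and CD86 on antigen-presenting cells activate CD28 and are bound more strongly by the inhibitory receptor CTLA-4, while ICOS ligand (Icosl) activates ICOS. PD-L1 (Cd274) and PD-L2 (Pdcd1lg2) engage PD-1 (Pdcd1) on lymphocytes, and LAG-3 binds MHC class II. VISTA (Vsir) and TIM-3 (Havcr2) are inhibitory receptors found on T cells and, in many tissues, abundantly on macrophages and other myeloid cells.

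The upstream sequences of 4 of these genes are shown, because Havcr2 and Vsir varied almost in parallel over the libraries, whereas Cd274 and Pdcd1, ligand and receptor of one pathway, did not. Each is the 250 bases before the RefSeq start on build GRCm38.p6, 5′ to 3′ on the gene's strand, with short motifs in capitals.
Havcr2, chr11:46454681-46454930, plus strand: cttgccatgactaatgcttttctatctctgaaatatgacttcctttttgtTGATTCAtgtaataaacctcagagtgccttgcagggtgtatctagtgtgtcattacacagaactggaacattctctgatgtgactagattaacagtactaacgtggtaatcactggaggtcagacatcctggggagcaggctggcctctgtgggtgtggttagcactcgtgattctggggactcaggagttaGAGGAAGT
Vsir, chr10:60346601-60346850, plus strand: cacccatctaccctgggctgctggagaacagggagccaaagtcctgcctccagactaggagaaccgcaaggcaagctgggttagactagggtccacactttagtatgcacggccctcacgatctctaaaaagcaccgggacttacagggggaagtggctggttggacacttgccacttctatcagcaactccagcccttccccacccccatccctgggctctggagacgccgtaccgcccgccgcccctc
Cd274, chr19:29367188-29367437, plus strand: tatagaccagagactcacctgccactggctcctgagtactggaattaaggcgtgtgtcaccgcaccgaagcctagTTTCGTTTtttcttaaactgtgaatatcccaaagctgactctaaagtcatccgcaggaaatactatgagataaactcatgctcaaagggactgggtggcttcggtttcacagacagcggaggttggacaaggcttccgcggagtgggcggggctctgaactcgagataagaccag
Pdcd1, chr1:94052554-94052803, minus strand: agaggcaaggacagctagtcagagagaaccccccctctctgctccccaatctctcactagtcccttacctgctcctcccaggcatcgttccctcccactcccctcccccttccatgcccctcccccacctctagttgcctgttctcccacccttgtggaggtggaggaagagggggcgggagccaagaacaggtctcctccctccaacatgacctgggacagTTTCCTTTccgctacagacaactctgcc
Motifs were searched on both strands from 250 bases before to 50 bases after the start, in the 8 genes whose symbols matched the RefSeq promoter table (not Cd86 and Lag3). The letters GAGGAAGT, a PU.1-type motif present in 3.20% of 32851 mouse promoters of this length, stood at position -8 in Havcr2. An AP-1-type motif, TGANTCA, stood at -200 in Havcr2 and at -42 in Cd80 and is present in 7.81% of promoters. An interferon-response-type motif, AANNGAAA or its reverse complement, stood at -175 in Cd274, -35 in Pdcd1lg2, 31 in Cd80 and -28 in Pdcd1 and is present in 23.9%. Neither TTCNNNGAA, a GAS-type motif in 8.30% of promoters, nor GGGNNTTCC, a part of the NF-kB motif in 5.82%, was found in any of the 8, and none of the motifs was found in Vsir, Icosl or Ctla4. These matches are letters only. For Cd80 and Ctla4 the 250 bases before the RefSeq start (chr16:38458683-38458932 and chr1:60908775-60909024) lie inside the GENCODE gene spans given below. Their motif results refer to that RefSeq start, not to the first base of the span.

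Total counts lay between 16617187 and 18306359 per library. In the count table, Ptprc (CD45, on all leukocytes) summed to 7.40 to 8.05 CPM (counts scaled to the library total, with edgeR's TMM factors) in Sham, 110.5 to 147.8 in injured VEGFR3fl/fl and 94.3 to 155.1 CPM in the libraries labelled injured VEGFR3iLECko, and pigment and muscle markers of the iris were present in all libraries, at 4427 to 37195 CPM. Flt4, which encodes VEGFR3, was not lower in the libraries labelled VEGFR3iLECko, with a log2 fold change against injured VEGFR3fl/fl of 0.335 (edgeR adjusted p = 0.200), and the genotype tags of their replicates 2 and 3 name another VEGFR number, so the group is called by its title. Summed Y-linked genes (Kdm5d, Uty, Ddx3y and Eif2s3y) were at 0.736 to 1.11 CPM in those 3 libraries and at 0.804 CPM in injured VEGFR3fl/fl replicate 3, against 51.1 to 167.1 CPM in the other 5. Against Sham, the VEGFR3iLECko label therefore cannot be told apart from the Y-linked level and the sex of the mice it reflects. Between the injured groups, only injured VEGFR3fl/fl replicate 3 separates the label from that level. In RNA of iris tissue with all its cells, fewer cells of a type and less RNA per cell cannot be told apart.

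After injury, 8 of the 10 genes were upregulated, with Havcr2, Vsir and Cd80 more than 10-fold higher and Pdcd1 and Ctla4 rising from 0 or 1 count per library. Cd274 and Lag3 were not differentially expressed genes (DEGs), defined by an adjusted p under 0.05 together with a fold change above 1.5 in the quasi-likelihood test of edgeR, with p-values adjusted over all 15010 genes. Among all genes tested, 22.1% were upregulated and 17.5% downregulated in injured against Sham VEGFR3fl/fl irises, and 0 of the 10 genes were downregulated. In 8 of them every injured library was above every Sham library, as in 33.9% of all genes. Their median log2 fold change was 3.43, against 0.01 for all genes. The panels of levels by library show these values for each gene.

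**Figure D1:**
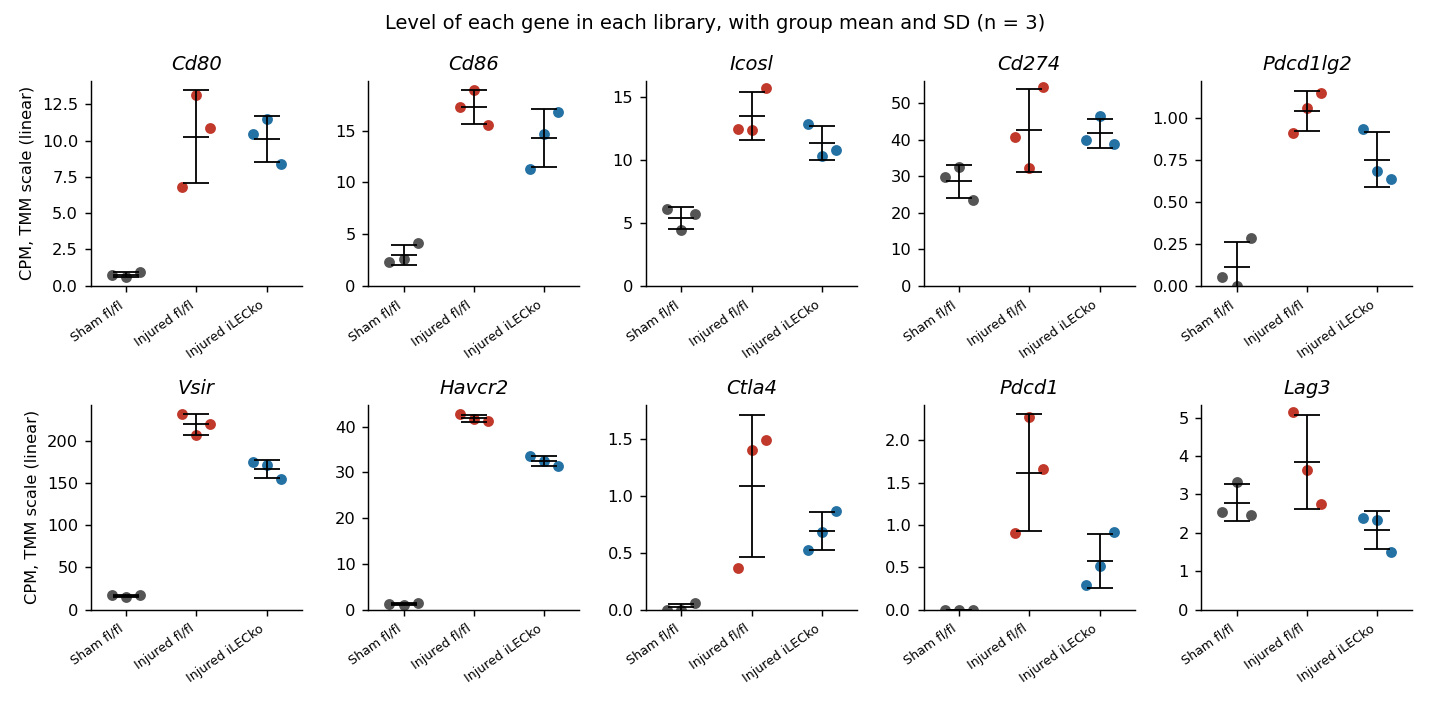
Levels of the 10 genes in CPM (y axis, linear, from 0, a different scale in each panel) in the 3 libraries of each group (x axis), with 1 point per library and a black bar for the group mean with its SD, where bars that reach below 0 are clipped. In 8 panels all injured VEGFR3fl/fl points are above all Sham points, and in Cd274 and Lag3 these groups overlap.

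Cd80 (NCBI Gene ID 12519, chr16:38455561-38496335 on the plus strand of GRCm38, GENCODE M21) had 13, 11 and 17 counts in the Sham libraries, 112, 224 and 189 in injured VEGFR3fl/fl and 179, 203 and 146 in the libraries labelled injured VEGFR3iLECko. Each injured library stood far above each Sham library, and the injured groups lay over each other. Its level rose from 0.766 ± 0.173 to 10.2 ± 3.20 CPM (SD, n = 3), a log2 fold change of 3.73 (SE 0.30, edgeR adjusted p = 8.29e-06). For Cd86 (NCBI Gene ID 12524, chr16:36603869-36666081, minus strand), on the same chromosome, the libraries had 41, 46 and 73 counts in Sham, 285, 323 and 271 in injured VEGFR3fl/fl and 194, 259 and 292 in those labelled VEGFR3iLECko. It rose from 2.99 ± 0.982 to 17.3 ± 1.67 CPM (SD, n = 3), by 2.52 on the log2 scale (SE 0.24, edgeR adjusted p = 2.06e-05). Per transcript length, as approximate TPM from the longest GENCODE transcript, Cd86 was 3.94 to 5.37 times as abundant as Cd80 in the Sham libraries, 1.79 to 3.18 times in injured VEGFR3fl/fl and 1.35 to 2.50 times in the libraries labelled VEGFR3iLECko. Thus the Cd86 to Cd80 ratio was higher in each Sham library than in any injured library. Its size depended on the lengths. With the median transcript, mean TPM of Cd86 and Cd80 was 4.39 and 0.5395 in Sham, and 21.8 and 6.28 in injured VEGFR3fl/fl libraries.

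Icosl (NCBI Gene ID 50723, chr10:78069302-78083913, plus strand), the ligand of ICOS, had 110, 78 and 102 counts in Sham, 205, 212 and 274 in injured VEGFR3fl/fl and 221, 183 and 188 in the libraries labelled VEGFR3iLECko. It was already well detected in Sham and rose least among the 8 upregulated genes, from 5.41 ± 0.890 to 13.5 ± 1.91 CPM (SD, n = 3), a log2 fold change of 1.32 (SE 0.17, edgeR adjusted p = 0.000147).

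The 2 ligands of PD-1 are neighbours on chromosome 19, separated by 22823 bases, and differed in their change. Cd274 (NCBI Gene ID 60533, chr19:29367455-29388095, plus strand) had 536, 576 and 419 counts in Sham, 674, 550 and 950 in injured VEGFR3fl/fl and 683, 819 and 676 in the libraries labelled VEGFR3iLECko. Per length of the longest transcript it was the most abundant of the 10 genes in Sham irises, and the Sham and injured VEGFR3fl/fl libraries overlapped. Its level was 28.6 ± 4.57 CPM in Sham and 42.5 ± 11.3 CPM (SD, n = 3) in injured VEGFR3fl/fl libraries, and the log2 fold change of 0.57 (SE 0.19, edgeR adjusted p = 0.0257) was under the fold threshold. It was a DEG at 0.68, 0.60 and 0.74 on the log2 scale without Sham replicate 2, injured replicate 1 or injured replicate 2, and at 0.59 in a fit of only the 6 libraries compared (edgeR adjusted p from 0.00504 to 0.0442). Exons of Cd274 overlap AC119228.1 on the other strand, and Plgrkt, which rose after injury (log2 fold change 0.81, edgeR adjusted p = 0.00117), lies 65 bases away. Whether counting used the strand is not given in the sources used here, so reads of Cd274 and of its antisense partner cannot be told apart. Pdcd1lg2 (NCBI Gene ID 58205, chr19:29410919-29471161, plus strand) had 1, 0 and 5 counts in Sham, 15, 18 and 20 in injured VEGFR3fl/fl and 16, 12 and 11 in the libraries labelled VEGFR3iLECko. It was higher in each injured library than in any Sham library, at few counts throughout. It rose by 3.13 on the log2 scale (SE 0.68, edgeR adjusted p = 0.00334), or by 4.90 without Sham replicate 3 (edgeR adjusted p = 0.000854), which held most of its Sham counts.

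Vsir and Havcr2, the receptors with myeloid expression, had the most precise changes. Vsir (NCBI Gene ID 74048, chr10:60346851-60372684, plus strand) had 313, 271 and 300 counts in Sham, 3827, 3548 and 3851 in injured VEGFR3fl/fl and 3001, 3024 and 2688 in the libraries labelled VEGFR3iLECko. The 3 groups were fully separated. From 16.5 ± 1.07 CPM in Sham it rose to 220.4 ± 12.3 CPM (SD, n = 3) in injured VEGFR3fl/fl libraries, a log2 fold change of 3.74 (SE 0.09, edgeR adjusted p = 1.79e-08). Vsir lies in an intron of Cdh23 on the opposite strand, and Cdh23 itself had at most 180 counts in any library. Havcr2 (NCBI Gene ID 171285, chr11:46454935-46481255, plus strand) had 20, 16 and 24 counts in Sham, 704, 712 and 718 in injured VEGFR3fl/fl and 575, 575 and 544 in the libraries labelled VEGFR3iLECko. Again no groups overlapped, and the injured VEGFR3fl/fl replicates lay between 41.2 and 42.7 CPM. Havcr2 rose from 1.12 ± 0.224 to 41.9 ± 0.767 CPM (SD, n = 3), by 5.21 on the log2 scale (SE 0.12, edgeR adjusted p = 1.79e-08). Per length of the longest transcript, Vsir was 7.02 to 9.51 times as abundant as Havcr2 in Sham and 2.77 to 3.05 times in all 6 injured libraries. These multiples depended on the lengths. With the median transcript, mean TPM of Vsir and Havcr2 was 30.8 and 0.512 in Sham, and 353.7 and 16.4 in injured VEGFR3fl/fl libraries.

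The lymphocyte receptors Pdcd1 and Ctla4 were nearly absent from Sham libraries. Pdcd1 (NCBI Gene ID 18566, chr1:94038305-94052553, minus strand) had 0 counts in all 3 Sham libraries, 15, 39 and 29 in injured VEGFR3fl/fl and 5, 9 and 16 in the libraries labelled VEGFR3iLECko. Against a limit of 3 counts per library, which is what a count of 0 allows and covers counting error only, it was at least 9.63-fold higher in injured VEGFR3fl/fl than in Sham irises (edgeR adjusted p = 0.000473). Ctla4 (NCBI Gene ID 12477, chr1:60887000-60915832, plus strand), which lies between Icos and Cd28 on chromosome 1, had 0, 0 and 1 counts in Sham, 6, 24 and 26 in injured VEGFR3fl/fl and 9, 12 and 15 in the libraries labelled VEGFR3iLECko. Its 56 counts in injured VEGFR3fl/fl against 1 count in Sham libraries gave a ratio of 58.8 (exact 95% interval from counting error, 10.1 to 2363, edgeR adjusted p = 0.000748). Without Sham replicate 3, which held that count, its fitted log2 fold change was 7.25 in place of 5.41. Injured VEGFR3fl/fl replicate 1 had the fewest counts of both receptors in its group.

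Lag3 (NCBI Gene ID 16768, chr6:124904361-124911705, minus strand) behaved differently from the other lymphocyte receptors. It had 46, 59 and 44 counts in Sham, 85, 62 and 48 in injured VEGFR3fl/fl and 41, 41 and 26 in the libraries labelled VEGFR3iLECko. Sham and injured VEGFR3fl/fl libraries overlapped, at 2.79 ± 0.475 and 3.85 ± 1.22 CPM (SD, n = 3), and the log2 fold change was 0.46 (SE 0.29, edgeR adjusted p = 0.199). In Sham libraries, Cd3d, Cd3e and Cd3g, which encode the CD3 chains of T cells, summed to 0.0554, 0.0565 and 0.225 CPM, so Lag3 stood at 1100% to 5900% of the CD3 sum there, against 42.2% to 63.4% in injured VEGFR3fl/fl and 56.2% to 97.6% in the libraries labelled VEGFR3iLECko. The mean log2 ratio of Lag3 to CD3 was 4.96 in Sham and -1.05 in injured VEGFR3fl/fl libraries, with no overlap (exact two-sided permutation test, p = 0.1, the smallest that 3 against 3 libraries allow). The CD3 sum rested on 1, 1 and 4 counts in the Sham libraries, and the difference of -6.001 was -2.59 relative to the whole T cell list and -3.54 relative to Ptprc. Ptms, 1976 bases from Lag3, had 8705 to 15115 counts and a log2 fold change of -0.30 after injury (edgeR adjusted p = 0.0816), and its part in the Lag3 counts was not tested.

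Other cell types moved with these changes. All 10 T cell markers tested, all 12 macrophage markers, 8 of 9 dendritic cell markers and 4 of 5 neutrophil markers were upregulated after injury, and 7 of 8 pigment and muscle markers of the iris were downregulated, with a sum of 33510 to 37195 CPM in Sham and 4427 to 7658 CPM in injured VEGFR3fl/fl libraries. The T cell markers summed to 7.17 to 8.53 CPM in Sham and 52.4 to 79.0 CPM in injured VEGFR3fl/fl libraries, and the macrophage markers to 552.2 to 567.2 and 12891 to 21312 CPM. Within the T cell list Cd4 had the highest mean level, at 3.323 to 3.822 CPM in Sham and 26.05 to 45.36 CPM in injured VEGFR3fl/fl libraries. The CD3 sum was at most 0.225 CPM in Sham libraries. How much of the T cell sum came from T cells was not tested. Of the markers found in the files, Ly6g of the neutrophil list was at 0 in all Sham libraries and no T cell or macrophage marker was. Relative to the macrophage sum, Havcr2 was at 0.159% to 0.240% in Sham and 0.201% to 0.323% in injured VEGFR3fl/fl libraries, groups that overlapped (exact two-sided permutation test, p = 0.3, Benjamini-Hochberg adjusted p = 0.375 over the 10 genes). By contrast, the log2 ratio to the macrophage sum was lower in injured than in Sham VEGFR3fl/fl libraries by 1.13 for Vsir, 1.15 for Cd80, 2.29 for Cd86, 3.54 for Icosl and 4.31 for Cd274, without overlap (exact permutation test, p = 0.1 each, adjusted p = 0.143). Pdcd1lg2 differed by -1.10 with overlap (exact p = 0.4). These ratios depended on the denominator, since relative to Ptprc Vsir differed by -0.23, Cd80 by -0.26, Cd86 by -1.40, Pdcd1lg2 by -0.21 and Havcr2 by 1.27 (exact permutation p = 0.1, 0.4, 0.1, 1 and 0.1), and Lyz2, of the macrophage list, itself rose by 6.53 on the log2 scale (edgeR adjusted p = 2.08e-07). Ctla4 and Pdcd1 had too few counts in Sham libraries for a ratio to be read.

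**Figure D2:**
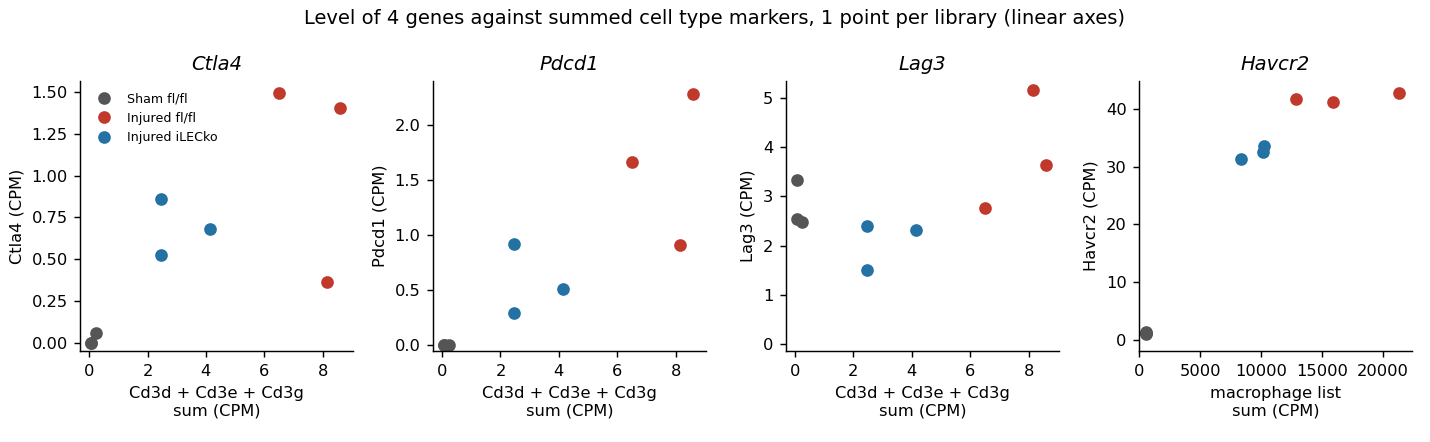
Levels of Ctla4, Pdcd1, Lag3 and Havcr2 in CPM (y axes) against the summed CPM of Cd3d, Cd3e and Cd3g or of the 12 macrophage markers (x axes), all linear, with 1 point per library coloured by group. Sham libraries lie near the origin for Ctla4, Pdcd1 and Havcr2, whereas Lag3 stood at 2.48 to 3.33 CPM at a CD3 sum of at most 0.225 CPM.

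To see how far these genes differed between the injured groups, the libraries labelled injured VEGFR3iLECko were compared with injured VEGFR3fl/fl. None of the 10 genes was a DEG in either direction. Among all genes, 0.573% were upregulated and 0.466% downregulated. An adjusted p under 0.05 was reached by 1 of the 10, Vsir, against 1.56% of all genes, and an unadjusted p under 0.05 by 4, namely Vsir, Havcr2, Lag3 and Pdcd1, against 24.5% of all genes. Under DESeq2's Wald test, which gave no adjusted p for Pdcd1lg2, Ctla4 and Pdcd1, 0 of the others were DEGs. Among all genes, that test called 2.325% upregulated and 1.872% downregulated. In it 4 of the 10 had an unadjusted p under 0.05, for which the share of all genes is not given here. All 10 log2 fold changes were below 0, with a median of -0.38 against -0.0099 for all genes, of which 48.5% were above 0. In 3 genes, Havcr2, Vsir and Lag3, every library labelled VEGFR3iLECko was below every injured VEGFR3fl/fl library, as in 14.3% of all genes.

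Vsir was at 232.3, 207.7 and 221.1 CPM in injured VEGFR3fl/fl and at 175.3, 171.3 and 154.7 CPM in the libraries labelled VEGFR3iLECko, a mean that was 24.2% lower. Its log2 fold change was -0.40 (95% interval -0.58 to -0.22, edgeR adjusted p = 0.0476), under the fold threshold. Havcr2 was at 42.7, 41.7 and 41.2 CPM against 33.6, 32.6 and 31.3 CPM, a mean that was 22.4% lower, at -0.37 on the log2 scale (95% interval -0.57 to -0.16, edgeR adjusted p = 0.0691). With the Y-linked level as a covariate the log2 fold changes were -0.40 for Vsir and -0.33 for Havcr2 (edgeR adjusted p = 0.345 and 0.498). Over the alternatives, the adjusted p of Vsir ranged from 0.000248 to 0.345 and that of Havcr2 from 0.00591 to 0.498, all at fold changes under the threshold. Lag3 was at 5.16, 3.63 and 2.76 CPM against 2.40, 2.32 and 1.497 CPM, a log2 fold change of -0.89 (95% interval -1.56 to -0.22, edgeR adjusted p = 0.124, range 0.0786 to 0.793 over the alternatives). Pdcd1 was at 0.910, 2.28 and 1.67 CPM against 0.292, 0.510 and 0.921 CPM. These groups overlapped in 1 library each, and the log2 fold change was -1.48 (95% interval -2.74 to -0.23, edgeR adjusted p = 0.158).

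For the remaining 6 genes the 95% intervals included 0. For Ctla4 the log2 fold change was -0.65 (95% interval -1.91 to 0.60, edgeR adjusted p = 0.486) and for Pdcd1lg2 -0.47 (-1.68 to 0.75, edgeR adjusted p = 0.614). Cd86 differed by -0.27 (-0.76 to 0.21, edgeR adjusted p = 0.448) and Icosl by -0.25 (-0.62 to 0.12, edgeR adjusted p = 0.361). For Cd80, at -0.020 (-0.58 to 0.54, edgeR adjusted p = 0.972), and for Cd274, at -0.028 (-0.45 to 0.39, edgeR adjusted p = 0.943), the sign turned when libraries were scaled by size alone. The forest plot of fold changes gives all 3 comparisons.

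**Figure D3:**
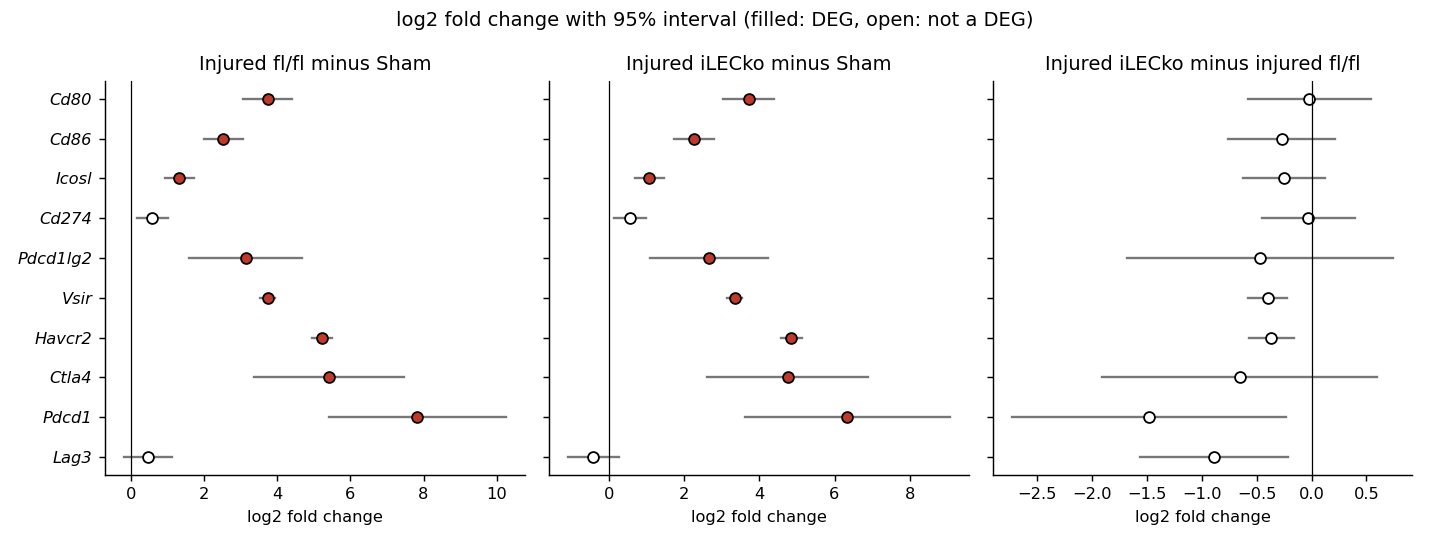
log2 fold changes of the 10 genes (x axis) with 95% intervals in 3 comparisons, filled where the gene was a DEG. In the first 2 panels 8 genes are filled and Cd274 and Lag3 are open, and in the third, between the injured groups, all 10 are open and lie below 0, at -1.48 to -0.020. Fitted values of Pdcd1 and Ctla4 against Sham rest on 0 or 1 Sham count per library.

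Macrophage markers moved with this comparison. Of 12, 6 were downregulated in the libraries labelled VEGFR3iLECko (Adgre1, C1qa, C1qb, C1qc, Cx3cr1 and Fcgr1), and the summed level of the 12 was 8342 to 10261 CPM against 12891 to 21312 CPM in injured VEGFR3fl/fl. These calls depended on the fit. In this comparison 0 of all genes were DEGs in the fit of only the 6 libraries compared. The same held without replicate 2 of the libraries labelled VEGFR3iLECko. With the Y-linked covariate, 0 of all genes were upregulated and 2 downregulated. Of 10 T cell markers 0 were DEGs, with 8 log2 fold changes below 0 and 2 above. The CD3 sum was 2.45 to 4.13 CPM against 6.49 to 8.61 CPM. The sums of the whole T cell list overlapped, at 38.9 to 56.1 CPM against 52.4 to 79.0 CPM. Cd4, with the highest mean level in that list, was at 16.63 to 35.58 CPM against 26.05 to 45.36 CPM. No marker of either list was at 0 in these groups. Of 5 neutrophil markers tested 0 were DEGs, and all 5 log2 fold changes were above 0, with a median of 1.33. The neutrophil list summed to 361.4 to 1170 CPM against 165.5 to 503.9 CPM in injured VEGFR3fl/fl. Log2 fold changes were below 0 for 8 of 9 dendritic cell, 3 of 3 B cell and 3 of 3 NK cell markers tested, and 0 were DEGs. Relative to the macrophage sum, Vsir, Cd274 and Icosl were higher in every library labelled VEGFR3iLECko than in any injured VEGFR3fl/fl library, with log2 ratios higher by 0.37, 0.78 and 0.53 (exact two-sided permutation test, p = 0.1 each, adjusted p = 0.333). Havcr2 differed by 0.41 in this ratio (exact p = 0.2, adjusted p = 0.400). Relative to Ptprc, which differed by -0.026 on the log2 scale between the injured groups, the ratios of Vsir and Havcr2 were instead lower by 0.36 and 0.32 (exact permutation p = 0.2 and 0.3). Relative to CD3, Ctla4, Lag3 and Pdcd1 differed by 0.96, 0.51 and -0.16 (exact permutation p = 0.4, 0.3 and 1) in a design that allows no p under 0.1. Relative to the whole T cell list Pdcd1 differed by -1.11 and relative to Ptprc by -1.51 (exact permutation p = 0.3 and 0.1). Lyz2 alone made up most of the macrophage sum in injured libraries.

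The libraries labelled VEGFR3iLECko were also compared with Sham. Since each of these groups enters another comparison, the values are given side by side and not as separate evidence. Among all genes, 19.7% were upregulated and 15.0% downregulated, every library was higher in 33.3% and lower in 33.2%. The 8 upregulated genes were those upregulated in injured VEGFR3fl/fl, of which Pdcd1lg2 and Icosl lost the call with the Y-linked covariate (edgeR adjusted p = 0.0921 and 0.0513). Log2 fold changes against Sham were 4.85 for Havcr2, 3.71 for Cd80, 3.34 for Vsir, 2.66 for Pdcd1lg2, 2.25 for Cd86 and 1.07 for Icosl (edgeR adjusted p from 3.32e-08 to 0.00992). Pdcd1 was at least 3.41-fold higher and the ratio of Ctla4 was 36.9 (exact 95% interval 6.22 to 1499). Without Sham replicate 3 the fitted log2 fold changes of Pdcd1lg2 and Ctla4 were 4.43 and 6.60, in place of 2.66 and 4.75. Cd274 was higher in every library labelled VEGFR3iLECko than in Sham, at a log2 fold change of 0.54 (edgeR adjusted p = 0.0349), again under the fold threshold, and at 0.65 it was a DEG without Sham replicate 2 (edgeR adjusted p = 0.0383). Lag3 was lower in every such library than in Sham, without being a DEG (log2 fold change -0.43, edgeR adjusted p = 0.255).

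Levels can be ordered between genes only per length. In approximate TPM, Sham irises held Cd274 at 22.6 ± 3.30 (SD, n = 3), Vsir at 9.77 ± 1.01, Icosl at 5.53 ± 1.11, Lag3 at 3.97 ± 0.527, Cd86 at 3.37 ± 1.12, Havcr2 at 1.18 ± 0.261 and Cd80 at 0.693 ± 0.167. In that order Icosl overlapped Lag3 and Lag3 overlapped Cd86. After injury of VEGFR3fl/fl mice the order was led by Vsir at 105.7 ± 5.18 TPM, then Havcr2 at 35.8 ± 2.17 and Cd274 at 27.4 ± 8.22, which overlapped. Cd86 at 15.8 ± 1.94 TPM was above Icosl at 11.2 ± 2.199 TPM, which overlapped Cd80 at 7.64 ± 2.81 TPM. Lag3 at 4.41 ± 1.05 TPM overlapped Cd80 and was above Pdcd1, Pdcd1lg2 and Ctla4, all between 1.35 and 1.99 TPM and not separated from each other. The libraries labelled VEGFR3iLECko had the same first 7 places, at 89.2 ± 6.01 TPM for Vsir, 30.9 ± 1.10 TPM for Havcr2 and 29.9 ± 3.76 TPM for Cd274. The order depended on the lengths. With the median in place of the longest transcript Vsir led in Sham too, at 30.8 TPM against 9.44 TPM for Cd274, and in injured VEGFR3fl/fl libraries Vsir was at 353.7 TPM, Cd86 at 21.8 TPM and Havcr2 at 16.4 TPM.

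Over the 9 libraries, log2 CPM of Vsir and Havcr2 correlated at r = 0.998, and Cd80, Cd86, Icosl, Pdcd1lg2, Ctla4 and Pdcd1 with Havcr2 at r = 0.920 to 0.986. These points share the 3 groups and their depth, so the values describe the pattern of Sham against injury. Cd274 correlated with Havcr2 at 0.741, and Lag3 with each of the others between -0.10 and 0.13. The genes most like Havcr2 were Cd53 (r = 0.9991) and Tnfaip2 (0.9989), and those most like Vsir were Pik3r5 (0.9991) and Itgb2 (0.9990). Cd80 was followed most closely by Cttnbp2nl (0.9942) and Msr1 (0.9941), Cd86 by Mis18a (0.9928) and Stx2 (0.9916), Icosl by Pik3r6 (0.9906) and Tns4 (0.9866), and Pdcd1lg2 by Egr2 (0.9873) and Spaca9 (0.9773). For Pdcd1 they were Itpripl1 (0.9910) and Tbc1d10b (0.9904) and for Ctla4 Olfr558 (0.9902) and Abcg3 (0.9898), all with few counts of the receptor. Cd274 had its closest matches in Mrpl50 (0.9555) and Ppp1r3c (0.9379), and Lag3 in Washc1 (0.9690) and Ncaph2 (0.9680).

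The other genes of these pathways were taken from a list of 60, of which 57 were found in the files and 47 passed the filter on low counts. After injury 40 of the 47 were upregulated, 4 were downregulated (Nectin3, Igsf11, Fgl1 and Tigit) and 3 were not DEGs (Cd27, Cd160 and Ceacam1), with a median log2 fold change of 2.72. Among all genes tested, 22.1% were upregulated and 17.5% downregulated, with a median of 0.01. Receptors of the CD28 family, all 3 tested, rose: Cd28, the activating partner of CD80 and CD86, by 1.63 on the log2 scale (edgeR adjusted p = 0.000571), Icos, the receptor of Icosl, by 6.20 (0.000227) and Btla by 3.39 (0.000300). Per length, Ctla4 was 0.196, 0.683 and 1.04 times as abundant as Cd28 in injured VEGFR3fl/fl libraries 1 to 3 and at most 0.0833 times in Sham. Of the galectins, Lgals9, which encodes a ligand of TIM-3, rose by 1.43 and Lgals3 by 3.55 (edgeR adjusted p = 4.18e-05 and 7.65e-06). Fgl1, a ligand of LAG-3, fell by 2.97 on the log2 scale (edgeR adjusted p = 0.000129), from 39, 56 and 48 counts to 7, 5 and 5. Tigit, an inhibitory receptor of lymphocytes, had 3684, 3130 and 3175 counts in Sham libraries, where CD3 was near 0, and 1773, 1617 and 1795 in injured VEGFR3fl/fl, a log2 fold change of -0.87 (edgeR adjusted p = 2.56e-05). The program that assigned these reads is not given in the sources used here, and whether the Sham counts come from Tigit transcripts was not tested. Its partners Pvr and Nectin2 rose by 0.88 and 1.29, and Nectin3 fell by 1.27 on the log2 scale (edgeR adjusted p = 0.00120, 1.63e-06 and 1.54e-05).

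Receptors of the TNF family were upregulated in 6 of 7 cases, with a median of 2.04, among them Cd40 at 2.27 (edgeR adjusted p = 4.34e-05) and Tnfrsf9 (4-1BB) at 3.94 (0.00382). All 3 tested ligands of that family were upregulated, of which Tnfsf14 (LIGHT) had 0, 0 and 1 counts in Sham and 36, 125 and 167 in injured VEGFR3fl/fl libraries. The ligands Cd40lg, Cd70, Tnfsf4 and Tnfsf18 did not pass the filter, and had at most 6 counts in any library. All 8 other costimulatory genes tested rose, with a median of 4.57, including Slamf7 at 6.42 (edgeR adjusted p = 6.41e-07), Ly9 at 6.18 and Cd48 at 4.31 (both 1.95e-07). Among 13 other inhibitory genes 11 rose, such as Lair1, a collagen receptor, at 3.24 (edgeR adjusted p = 8.26e-07) and Cd200r1 at 4.32 (1.84e-07).

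Between the injured groups, 1 of the 47 genes was upregulated and 2 were downregulated in the libraries labelled VEGFR3iLECko, against 0.573% and 0.466% of all genes. The median log2 fold change was -0.15, against -0.0099 for all genes. The single increase was that of Nectin3 at 0.62 (edgeR adjusted p = 0.0399, 1234, 1730 and 1753 against 2400, 2482 and 2531 counts). Ly9 and Cd48, both SLAM family receptors of leukocytes, fell by 1.18 and 0.89 on the log2 scale (edgeR adjusted p = 0.0284 and 0.0345). For Ly9 the counts were 1850, 1283 and 1280 against 719, 737 and 545, and for Cd48 they were 1100, 816 and 880 against 458, 558 and 535, so the groups were separated in both. These 3 calls were lost in the fit of only the 6 libraries compared and, separately, with the Y-linked level as a covariate. Without the covariate, they were also lost when Sham replicate 1 or 3 or any 1 of the libraries labelled VEGFR3iLECko was left out. Without Sham replicate 2 there were 0 upregulated and 1 downregulated gene, without injured VEGFR3fl/fl replicate 1 0 and 2, and with injured VEGFR3fl/fl replicate 3 left out 1 and 4, while DESeq2's Wald test gave 7 downregulated genes. Cd28 differed by -0.98 (edgeR adjusted p = 0.0766) and Icos by -0.94 (edgeR adjusted p = 0.307), and neither was a DEG. Against Sham, the libraries labelled VEGFR3iLECko had 38 genes up and 4 down of the 47, with a median of 2.19. Among all genes, 19.7% were up and 15.0% down in that comparison, with a median of -0.01.

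**Figure D4:**
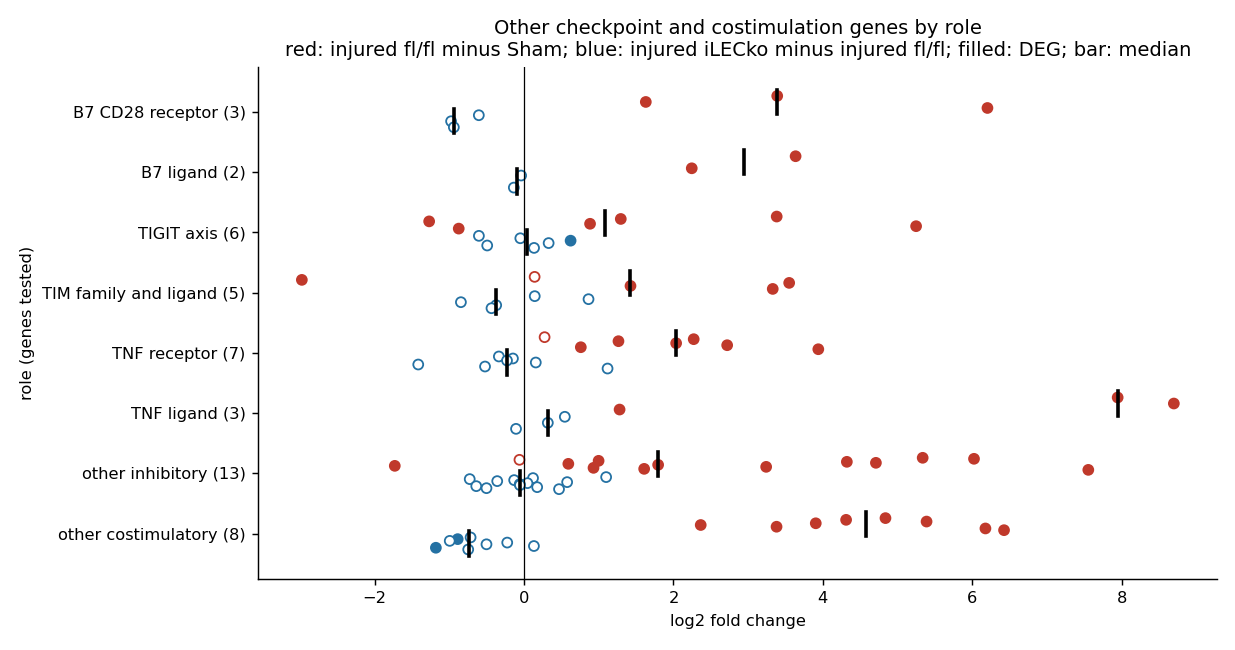
log2 fold changes (x axis) of the 47 other tested checkpoint and costimulation genes by role (y axis, number tested in brackets), in red for injured minus Sham VEGFR3fl/fl and in blue for libraries labelled VEGFR3iLECko minus injured VEGFR3fl/fl, filled for DEGs, with black bars for medians. Red points are mostly filled and right of 0 (40 of 47 genes upregulated), and 3 blue points are filled.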

How the data were processed

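Iris RNA was sequenced in 9 libraries of 3 pooled irises each, 3 per group. Per the study's methods and the labels, single-end reads were filtered and aligned with HISAT2 2.0.4 and Bowtie2 2.2.5 to mm10. The authors deposited estimated counts per gene (expected counts, not normalized), between 9.83% and 10.3% of them not whole. The counting program and its use of strand are not given in the sources used here. A combined table held the same values with the authors' group averages and was not used.

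Counts were rounded in R 4.3.3 and low genes were removed with edgeR 4.0.16 (filterByExpr), leaving 15010 genes of 18349. The study's TPM filter and DESeq2 were alternatives (DESeq2 1.42.0). Libraries were normalized by TMM (factors 0.90 to 1.09) and entered 1 model with a term for group and no other; edgeR quasi-likelihood p-values were adjusted by Benjamini-Hochberg. Standard errors came from the F statistic. Approximate TPM used the longest GENCODE M21 transcript, found for 97.7% of genes. Ratios to marker sums were compared by exact two-sided permutation tests over libraries, where 3 against 3 allow no p under 0.1, and a count of 0 was set to 0.5. The script was tested on simulated data. Replicates differed by more than counting noise (chi-square per degree of freedom 5.21 to 78.2). Per the study's methods each group had 3 pools of 3 mice, so p-values measure the spread between pools. In the edgeR fit of all libraries that spread was 1 estimate per gene, shared by the 3 groups although their replicates differed unequally. The 10 genes, the gene lists and the tests were chosen with earlier results of these data known. Named genes were the 10, genes of the fixed list of 60, the 2 genes most correlated with each, and overlapping or neighbouring genes. Alternatives covered normalization, filter, test, threshold, libraries fitted, a replicate block, Y-linked level, marker denominators and transcript length.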

Additional observations from a re-analysis of the deposited data

How the results depend on the processing

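In injured against Sham VEGFR3fl/fl libraries, each of the 10 genes kept its direction in the alternatives that tested it. With the approximate TPM filter, alone or with DESeq2's Wald test, 7 of the 10 genes were tested, and 5 were upregulated in injured VEGFR3fl/fl and 5 in the libraries labelled VEGFR3iLECko against Sham. Among all genes, 22.23% were upregulated in injured VEGFR3fl/fl in either fit. In the libraries labelled VEGFR3iLECko, 19.65% were with the filter alone and 19.76% with DESeq2's Wald test. Without a fold threshold 1 of them, Vsir, was downregulated between the injured groups. For the wider list, that comparison gave 0 upregulated genes with library size only, with the replicate block, with the Y-linked covariate and in the fit of only the libraries compared, and 0 to 1 with each library left out in turn. It gave 7 downregulated genes with DESeq2's Wald test, with or without the TPM filter, 1 with the replicate block, 0 with the Y-linked covariate, 0 in the fit of only the libraries compared and 0 to 4 with each library left out. Among all genes, DESeq2's Wald test called 1.872% downregulated, and 2.062% with the TPM filter. Between the injured groups, unadjusted p-values under 0.05 were reached by 4 of the 10 genes in the fit of 6 libraries and by 3 with the covariate. The share of all genes at that level is not given here for these fits. Against Sham, the libraries labelled VEGFR3iLECko had 2 downregulated genes of the wider list with the covariate. Samples with the same replicate number deviated from their group means with correlations of -0.39 to 0.13, so the numbers do not pair them, and the replicate block changed no call of the 10 genes.

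Between the injured groups, Cd274 was at 0.035 and Cd80 at 0.032 with library size only, which moved the all-gene median after injury to -0.16 on the log2 scale and the upregulated share of DEGs from 55.8% to 44.1%. Cd80 was at 0.014 with the replicate block. With each library left out, Cd274 ranged from -0.19 to 0.19 and Cd80 from -0.24 to 0.20. With the Y-linked covariate, Cd274 and Lag3 against Sham in the libraries labelled VEGFR3iLECko were at -0.0035 and 0.15, and Pdcd1lg2 and Icosl were no longer DEGs (edgeR adjusted p = 0.0921 and 0.0513). DESeq2 gave no adjusted p for Pdcd1lg2, Ctla4 and Pdcd1 between the injured groups.

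Ratios depended on the denominator. With the whole T cell list, log2 ratios after injury were 1.67 for Ctla4 and 2.73 for Pdcd1, and Lag3 between the injured groups was at -0.44. With Ptprc, those after injury were 0.72 for Ctla4 and 1.78 for Pdcd1, and between the injured groups -0.32 for Havcr2, -0.36 for Vsir, -0.44 for Pdcd1lg2, -0.25 for Cd86, -0.21 for Icosl, -0.39 for Ctla4, -0.83 for Lag3, -1.51 for Pdcd1, 0.044 for Cd274 and 0.064 for Cd80. The after-injury ratios of Ctla4 and Pdcd1 rest on 0 or 1 Sham count per library and cannot be read. Between the injured groups, the log2 ratio difference of Pdcd1 to CD3 ranged from -0.70 to 0.12 with each library left out. With the median transcript length, injured VEGFR3fl/fl libraries held 16.4 TPM of Havcr2, 353.7 of Vsir, 12.1 of Cd274, 0.636 of Pdcd1lg2, 21.8 of Cd86, 6.56 of Icosl, 0.876 of Pdcd1 and 3.23 of Lag3. Few counts per library limit Ctla4, Pdcd1 and Pdcd1lg2. The causes of these shifts were not tested.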
